A study of Mus musculus with 3 samples.

Results

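The mouse genome keeps most of its replication-dependent histone genes in 1 large cluster on chromosome 13, and that cluster is split by a run of vomeronasal receptor genes. The region described here, chr13:21700000-23900000 in mm9 coordinates, holds both histone runs and the receptor genes between them. Its members are the GATC fragments of 2 DamID profiles that lie in it, 5868 of the 6415372 fragments of the genome. Its centre was set at 22200000-23400000 (3415 fragments), its left outer part at 21700000-22200000 (1252 fragments) and its right outer part at 23400000-23900000 (1201 fragments). The flanks of 500 kb on each side held 1260 and 1154 fragments. The rule that sets these borders uses positions alone, but the parts were chosen with earlier results of these data known.

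All cells were embryonic fibroblasts of wild-type C57BL/6 mice. They were transduced with a retrovirus that carried Dam fused to Lamin A, Dam fused to Lap2b, or Dam alone, with 1 sample in each of the 3 groups. The labels name no other allele or agent. The fusions were expressed in addition to the cells' own proteins, and each profile rests on 1 culture, so no difference below has a replicate check and no p-value was computed. SDs are over bins of 10 kb, which are not replicates. The profiles and domain lists are called the Lamin A and Lap2b profile or list after their labels alone, and of paired values the first is always Lamin A. Over all edges of each list, the median change within 10 kb was larger in the profile of the other label, as given below. Within 50 kb this held for the Lap2b list alone. Whether the labels of the lists or of the profiles are crossed was not tested. DamID gives no RNA level, so the labelled cell type was not checked against marker genes.

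DamID records where a protein has been near DNA: the bacterial methylase Dam, fused to the protein, methylates adenine in GATC, and the methylated fragments are amplified and sequenced. Lamin A builds the filament layer that lines the nucleus, and Lap2b sits in the inner nuclear membrane and binds lamins. Stretches that such fusions mark more than free Dam does are called lamina-associated domains (LADs), and they are in general poor in active genes. Replication-dependent histone genes encode the core and linker histones, are present in many near-identical copies, and are transcribed strongly while DNA is replicated. Their transcription takes place in a nuclear body of its own, the histone locus body. Type 1 vomeronasal receptors (Vmn1r) are pheromone receptors of sensory neurons of the vomeronasal organ, and each such neuron expresses very few of the family's genes.

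In the RefSeq gene order of chromosome 13, 8 olfactory receptor genes (Olfr1366 to Olfr1359) were followed by 18 histone genes, by Zfp184, Pom121l2 and the protease gene Prss16, and by 5 more histone genes that ended with H2bc11. Then came 36 protein-coding Vmn1r genes, Vmn1r188 to Vmn1r223, with 43 Vmn1r pseudogenes, the protein-coding gene Gm11295 and 0 histone genes among them. After Vmn1r223 lay Zfp322a, Abt1, Btn1a1 and Btn2a2, and then 20 histone genes from H4c8 to H4c3. The iron-regulation gene Hfe separated these from 9 further histone genes, and Trim38 with the anion transporter genes Slc17a2, Slc17a3, Slc17a1 and Slc17a4 separated these from H2bc1 and H2ac1. The left histone run held 23 protein-coding histone genes (1 H1, 7 H2A, 8 H2B, 2 H3 and 5 H4) and 32 tRNA genes. The right run held 31 (5 H1, 6 H2A, 7 H2B, 7 H3 and 6 H4) and 45 tRNA genes. This gene table is of the build GRCm38.p6 and the profiles are in mm9, so it was used for order and names alone, and which bin each gene occupies was not determined.

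The promoters of the receptor genes at both ends of the vomeronasal run, and of the nearest histone genes in the gene order, are shown. Their positions are in GRCm38.p6 and cannot be set beside the mm9 positions of the profiles. Where the signal changed relative to these genes was not determined. Each window holds 250 bases before and 50 after the annotated start, from RefSeq (GRCm38.p6), on the + strand. H2bc11 (chr13:22042948-22043247) is the last histone gene of the left run and Vmn1r188 (chr13:22087628-22087927) the receptor gene next to it. Vmn1r223 (chr13:23248988-23249287) is the last receptor gene and H4c8 (chr13:23530794-23531093) the first histone gene of the right run. Capitals mark the site that Dam methylates (GATC) and 3 promoter motifs searched on either strand: the TATA box spelled TATAAA, the CCAAT box by its own name, and part of the octamer motif, spelled ATTTGCA. On the other strand a CCAAT box reads ATTGG.
H2bc11: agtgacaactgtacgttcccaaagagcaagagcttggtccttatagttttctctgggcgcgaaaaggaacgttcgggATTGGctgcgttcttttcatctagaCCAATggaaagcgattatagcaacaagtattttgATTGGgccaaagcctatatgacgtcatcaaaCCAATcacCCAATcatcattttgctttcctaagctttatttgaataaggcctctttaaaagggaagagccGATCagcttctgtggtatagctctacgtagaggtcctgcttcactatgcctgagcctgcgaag
Vmn1r188: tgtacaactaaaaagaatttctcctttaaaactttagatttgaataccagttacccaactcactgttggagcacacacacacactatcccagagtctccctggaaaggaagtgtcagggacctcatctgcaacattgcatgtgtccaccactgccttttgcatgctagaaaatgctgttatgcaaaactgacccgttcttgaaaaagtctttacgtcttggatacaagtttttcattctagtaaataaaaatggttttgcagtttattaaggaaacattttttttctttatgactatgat
Vmn1r223: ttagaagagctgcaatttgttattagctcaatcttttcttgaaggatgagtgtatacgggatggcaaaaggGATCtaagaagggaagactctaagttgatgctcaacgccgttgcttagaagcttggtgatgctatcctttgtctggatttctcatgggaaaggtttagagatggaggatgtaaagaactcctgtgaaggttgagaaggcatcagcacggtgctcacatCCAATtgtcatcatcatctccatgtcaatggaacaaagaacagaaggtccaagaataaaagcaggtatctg
H4c8: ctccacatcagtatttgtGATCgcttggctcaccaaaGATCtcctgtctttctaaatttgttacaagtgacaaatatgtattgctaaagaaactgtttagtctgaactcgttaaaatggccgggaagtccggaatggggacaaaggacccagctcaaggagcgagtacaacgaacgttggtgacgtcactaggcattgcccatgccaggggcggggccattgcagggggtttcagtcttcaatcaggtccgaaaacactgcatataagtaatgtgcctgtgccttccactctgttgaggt
H2bc11 held 5 CCAAT matches and 1 GATC, Vmn1r188 held none of the 4 motifs, Vmn1r223 held 1 CCAAT and 1 GATC, and H4c8 held 2 GATC. No match overlapped another in these windows.

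Among all members of these gene runs, 51 of 54 histone genes and 33 of 36 Vmn1r genes had a promoter sequence in the RefSeq table. Histone promoters had a median of 11 CG dinucleotides in 300 bases, against 1 in Vmn1r promoters and 7 over all 27025 promoters. Median GC was 45.3% in histone, 36.3% in Vmn1r and 52.7% in all promoters. CCAAT stood in 84.3% of histone promoters, including 14 of 14 of the H2B genes, in 36.4% of Vmn1r promoters and in 37.9% of all. TATAAA stood in 60.8%, 27.3% and 14.2% of them, and the octamer part in 19.6%, 12.1% and 3.98%. GATC stood in 29.4% of histone, 72.7% of Vmn1r and 48.0% of all promoters. These matches describe the sequences and carry no DamID value.

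The centre of the region had a high DamID signal in both profiles, and both outer parts were mostly low. The deposited value of a fragment is a log2 ratio of fusion to reference, as read from the values, and above 0 the fusion exceeds the reference after scaling. What the reference was is not given in the sources used here, and Dam alone is the control group of the series. The mean over the 120 bins of the centre was 1.59 ± 0.59 in the Lamin A profile and 1.52 ± 0.44 in the Lap2b profile. The left outer part had means of -0.99 ± 1.38 and -0.55 ± 1.08 over 50 bins, and the right outer part -1.60 ± 0.95 and -0.97 ± 0.77 over 50 bins. The centre thus exceeded the outer parts by 2.88 in the Lamin A profile, a 7.38-fold ratio, and by 2.28 in the other, a 4.86-fold ratio. Over all 255936 bins of the genome the means were 0.20 ± 1.31 and 0.29 ± 1.24.

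**Figure D1:**
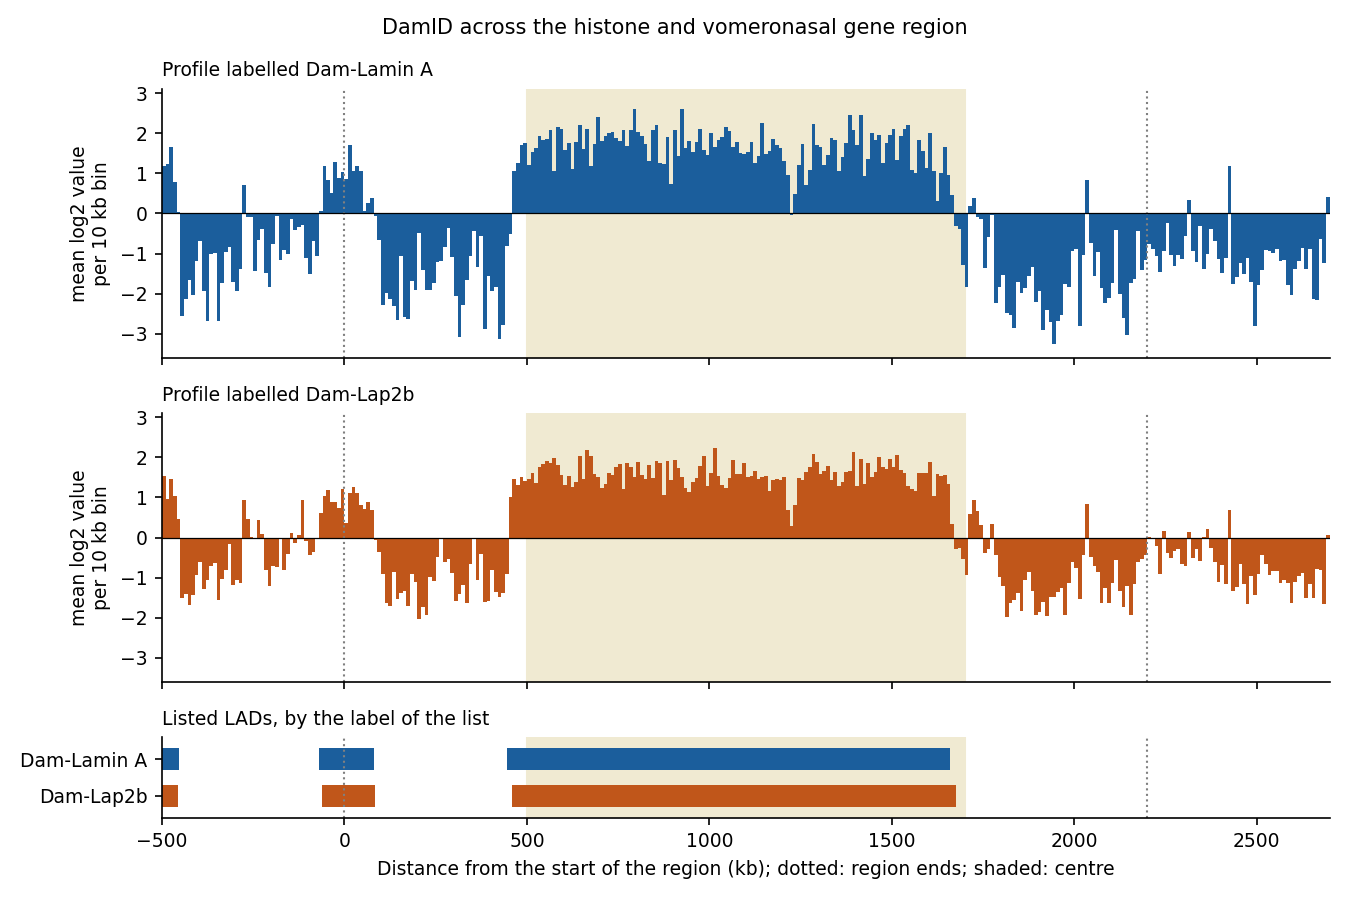
Mean log2 value per 10 kb bin (bars) in each profile, and the listed LADs (boxes), against the distance from the start of the region in kb. The shaded centre is high in both profiles except at its right end and lies mostly in 1 LAD of each list, while the outer parts to its left and right are mostly below 0.

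Nearly every bin of the centre was on the same side of 0. In the Lamin A profile, 116 of 120 centre bins were above 0, where 55.2% of bins in the genome were. In the Lap2b profile, 117 of 120 were above 0, against 59.3% in the genome. The left outer part had 12 and 13 of 50 bins above 0, and the right outer part 3 and 6 of 50. Single fragments showed the same order: 91.0% and 94.4% of the centre's fragments were above 0, against 34.4% and 35.3% in the left and 20.5% and 22.5% in the right outer part. Over all fragments of the genome these shares were 60.6% and 62.7%. The bins of the centre and of the outer parts did overlap, since some bins of the outer parts were as high as the centre and the last bins of the centre were low.

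**Figure D2:**
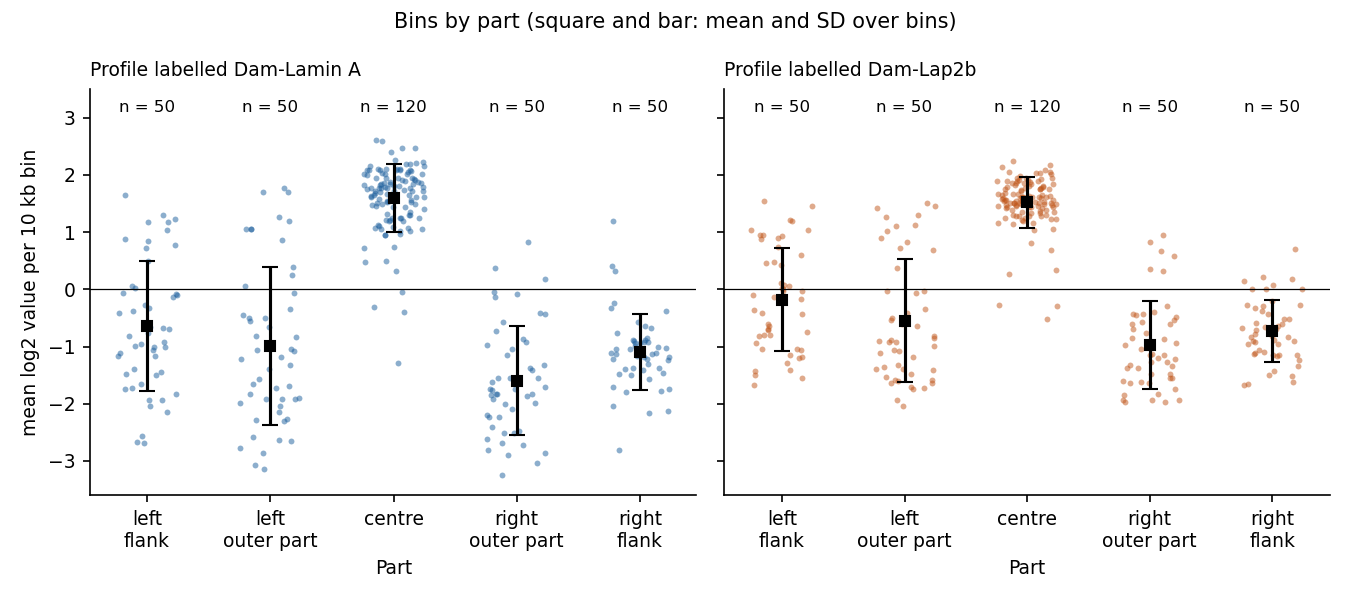
Each point is the mean log2 value of a 10 kb bin, and squares with bars are the mean and SD over the bins of a part, whose number is printed above. The centre (1.59 and 1.52) stands above both outer parts and both flanks, and its bins spread less than those of the left outer part.

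Within the centre the signal was nearly level, apart from the last 100 kb, where the means were 0.55 and 0.82. In windows of 100 kb from 22200000 to 23300000, the means ran from 1.14 to 1.99 in the Lamin A profile and from 1.36 to 1.71 in the Lap2b profile. The highest bin was at 22620001-22630000 in the first (2.60) and at 22710001-22720000 in the second (2.23). The lowest of these windows, 22900000-23000000, held a narrow dip in both profiles. Its bins from 22910001 to 22940000 read 0.95, -0.04 and 0.50 in the Lamin A profile and 0.68, 0.28 and 0.81 in the other. These 30 kb did not interrupt the LAD in either list.

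Against the rest of the genome, it was the contrast with the neighbours that stood out more than the height of the centre. Among 25294 windows as long as the centre, 7.01% had a mean as high in the Lamin A profile and 11.5% in the Lap2b profile. Of 25008 windows of this length set against the 500 kb on each side, 1 had a contrast of 2.88 or more in the Lamin A profile, and that was the region itself. In the Lap2b profile 28 windows (0.112%) reached 2.28. Windows overlap each other, so neighbouring windows are not separate places. Since the parts were chosen with earlier results of these data known, the rank of the region is a description alone. The right outer part was among the lowest stretches of its length in the Lamin A profile, where 0.458% of 25530 windows were as low, and less so in the other (16.0%). For the left outer part these shares were 17.7% and 26.8%.

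**Figure D3:**
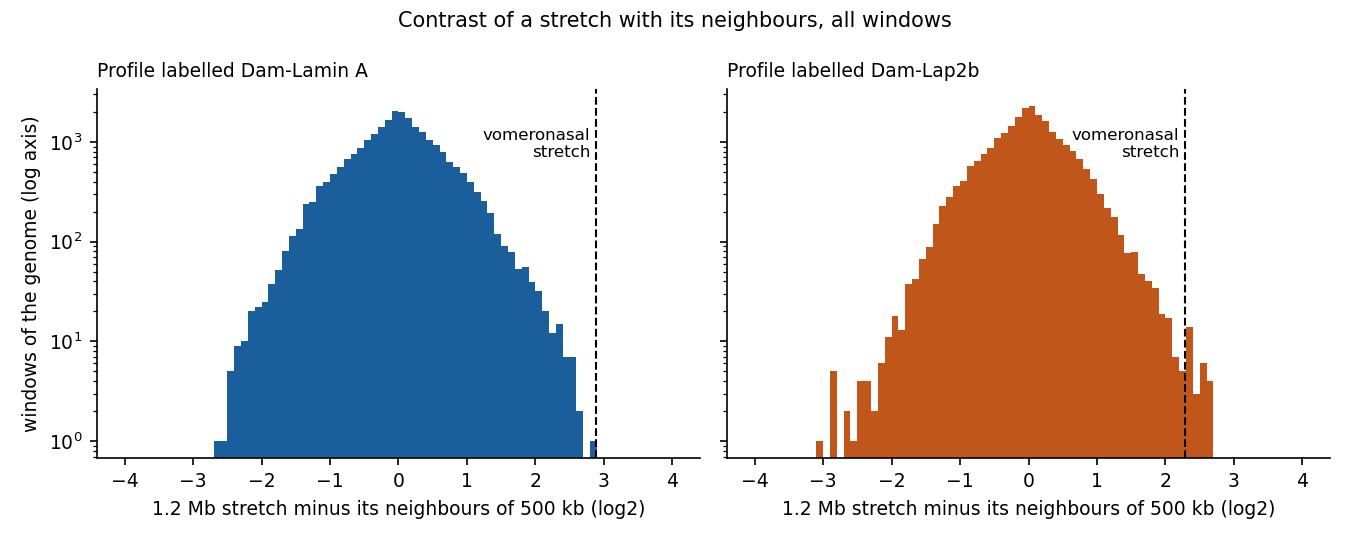
Number of genome windows (log axis) by the mean log2 value of a 1.2 Mb stretch minus that of its neighbours of 500 kb. The dashed line is the centre of the histone region, at 2.88 in the Lamin A profile, the highest of all windows, and at 2.28 in the Lap2b profile.

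The change from the left outer part to the centre was abrupt. Steps were measured as the difference between the means of the 5 bins (50 kb) after and before each bin edge. In the Lap2b profile the step was largest after base 22150000, where the mean went from -1.19 ± 0.31 to 1.34 ± 0.19, a rise of 2.53. The 5 bins before it read -0.82, -1.37, -1.49, -1.39 and -0.90, and the 5 after it 1.02, 1.45, 1.31, 1.50 and 1.42. No bin before this step was as high as any bin after it. In the Lamin A profile the step was largest after base 22160000, with a rise of 3.20 from -1.81 ± 1.16 to 1.39 ± 0.32. Its bins read -1.83, -3.13, -2.77, -0.81 and -0.50 before the step and 1.05, 1.26, 1.70, 1.76 and 1.197 after it, so the 2 bins just before the step were already above the 3 before them. From 20% to 80% of the change between the levels on either side took 20 kb in this profile and 10 kb, the width of 1 bin, in the other. Both steps lay within 50 kb left of the border at 22200000, so that the end of the left outer part already carried the signal of the centre.

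Steps of this size were rare in the genome. Over 254229 bin edges the median size of a step, in either direction, was 0.31 in the Lamin A profile and 0.23 in the Lap2b profile, with a 99th percentile of 1.76 and 1.39. A step of 3.20 or more was found at 6 edges in the first (0.00236%), the largest being 3.35. A step of 2.53 or more was found at 8 edges in the second (0.00315%), the largest being 2.97. These counts include the edges of the region.

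The steps at the right border were smaller and came in stages. In the Lap2b profile the largest fall was 1.75, after base 23360000. Its bins read 1.03, 1.59, 1.53, 1.55 and 1.35 before this edge and 0.34, -0.29, -0.27, -0.52 and -0.94 after it. From 20% to 80% of the change between the levels on either side (1.68 and -0.43) took 10 kb at this edge. The level after it was above the mean of 23500000-23600000 (-1.47), so this width covers the first stage and not the whole fall. A further fall followed after base 23480000 (-1.37). In the Lamin A profile these falls were of nearly equal size, -1.67 after base 23360000 and -1.68 after base 23480000. No such width is given for its largest fall, since its bins passed the 20% and 80% levels out of order. Falls or rises as large as the largest fall were found at 1.26% of edges in the Lamin A profile and 0.244% in the other. Between these edges the signal was uneven. The bin at 23360001-23370000 was above 0 in both profiles (0.47 and 0.34), and so were 2 later bins in the Lamin A profile (23410001-23430000) and 5 in the Lap2b profile (23410001-23450000 and 23470001-23480000). The mean of the window 23400000-23500000 was -0.76 and -0.02, between that of 23300000-23400000 (0.55 and 0.82) and that of 23500000-23600000 (-2.00 and -1.47).

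**Figure D4:**
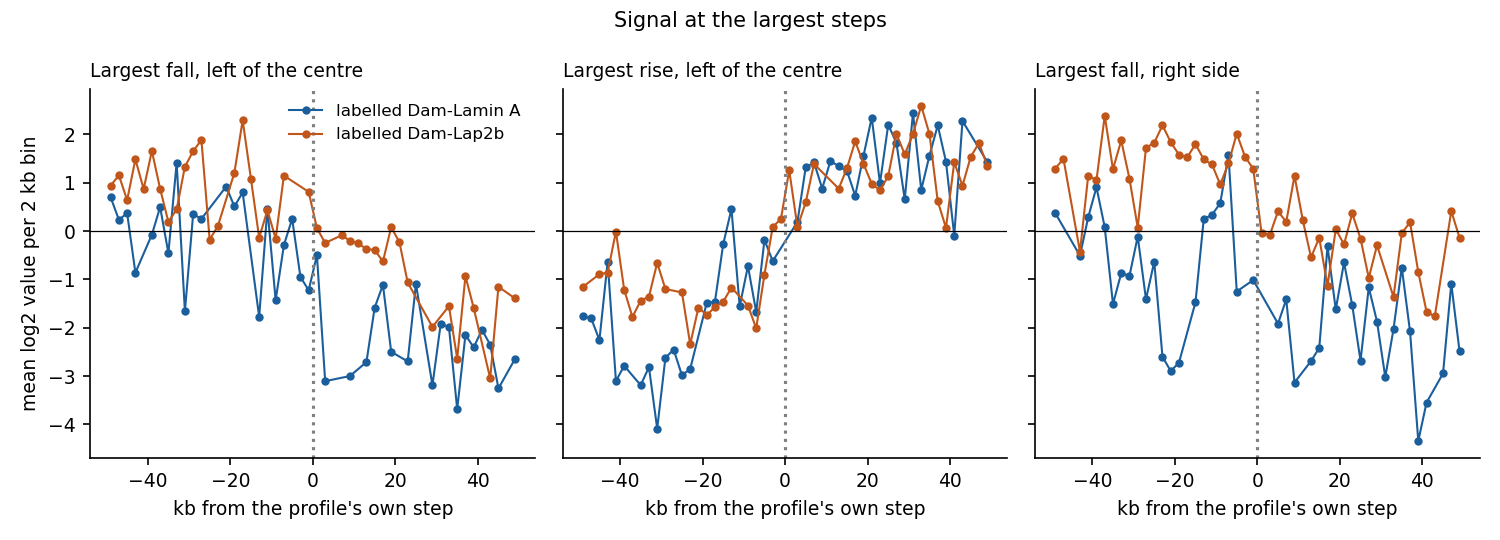
Mean log2 value in bins of 2 kb within 50 kb of each profile's own largest step (dotted), at the fall left of the centre, the rise into the centre and the fall at the right border. At the rise, both profiles change from mostly below to mostly above 0 close to the line, while at the right border the points of the Lamin A profile lie on both sides of 0 before the fall.

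Some bins of the outer parts away from these borders were also above 0 in both profiles. At the left end of the region, on the side where the gene order has the olfactory receptor genes, the bins from 21700001 to 21780000 were above 0 in both profiles. The signal then fell by 2.26 after base 21800000 in the Lamin A profile and by 1.78 after base 21780000 in the other. In the right outer part the bin at 23730001-23740000 stood at 0.82 and 0.83 between bins below 0. In the flanks, the bin at 24120001-24130000 stood at 1.19 and 0.70, that at 21420001-21430000 at 0.72 and 0.94, and the stretch 21200001-21250000 averaged 0.97 and 1.09. These bins were chosen after their values were seen.

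The lists of LADs gave the same layout, but they belong to the same samples as the profiles and are not a separate measurement. In the Lamin A list, a LAD of 1.213 Mb from 22146426 to 23359850 covered most of the centre, and in the Lap2b list a LAD of 1.218 Mb from 22158312 to 23376426. A shorter LAD at the left end ran from 21630757 to 21780718 and from 21638737 to 21782653, and a gap of 365.7 or 375.7 kb parted it from the long one. No LAD of either list touched the right outer part or the right flank. The centre was 96.7% and 98.0% inside a LAD, the left outer part 26.9% and 24.9%, and the genome 54.1% and 50.02%. By bins, the middle of 116 of 120 centre bins lay in a LAD of the Lamin A list, where 54.6% did in the genome. In the Lap2b list it was 118 of 120, against 50.5%. The left outer part had 13 and 12 of 50 such bins, and the right outer part had 0 in both lists.

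The bins between the LADs were low. In the gap between the LADs of the Lamin A list, 0 of 37 bins were above 0 in either profile, with means of -1.66 ± 0.81 and -1.11 ± 0.54. In the gap of the Lap2b list, which starts and ends later, 1 of 38 was above 0, in the Lap2b profile. Of genome bins in neither list, only 9.68% and 11.7% were above 0, so few such bins are to be expected in a gap. Genome bins in neither list averaged -0.99 ± 0.77 and -0.89 ± 0.77, so the gap was lower than the mean of such bins by less than 1 SD. Inside the long LAD of the Lamin A list the means were 1.63 ± 0.50 and 1.57 ± 0.31, against 1.29 ± 0.69 and 1.34 ± 0.54 in genome bins of both lists. Among the 365 LADs of 1 Mb or more in the same list, 88 had a mean as high in the Lamin A profile, and 112 had one as high in the other profile. The level within this domain was thus not unusual for a long LAD.

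The ends of these domains differed in position between the lists by 7.98 and 1.935 kb for the short LAD and by 11.886 and 16.576 kb for the long one. At the start of the long LAD, the 50 kb inside exceeded the 50 kb outside by 2.995 (Lamin A list and profile), and 10 of the 4147 edges of that list had a difference as large. With the Lap2b list and profile it was 2.35, and 15 of 4578 edges were as large. With the labels crossed, the start in the Lamin A list gave 2.64 in the Lap2b profile (5 of 4147 edges as large), and that in the Lap2b list gave 3.21 in the Lamin A profile (5 of 4578). At the end of the long LAD these differences were 1.55 and 1.12, as large at 20.4% and 20.1% of edges. The start of the long LAD in the Lamin A list lay 3.574 kb from the largest rise of the Lap2b profile and 13.574 kb from that of its own label. In the Lap2b list the start lay 8.312 kb from the largest rise of the profile of its own label and 1.688 kb from that of the other. At both LAD ends of the Lap2b list, the largest fall of its own label was the nearer one (2.653 against 17.347 kb, and 16.426 against 103.574 kb). At both ends of the Lamin A list, the fall of the other label was the nearer one (0.718 against 19.282 kb, and 0.15 against 120.15 kb). The distances of 103.574 and 120.15 kb rest on the Lamin A fall after base 23480000, which nearly equalled that after base 23360000. The positions of these steps are known to the nearest bin edge. With 10 kb on each side, the median difference over all edges of the Lap2b list was 1.49 in the Lamin A profile and 0.57 in its own. Over all edges of the Lamin A list it was 0.87 in its own profile and 1.10 in the Lap2b profile. With 50 kb on each side, the median for the Lap2b list was 1.03 in the Lamin A profile and 0.61 in its own. For the Lamin A list it was then 0.90 in its own profile and 0.79 in the Lap2b profile.

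Between the profiles, the outer parts differed more than the centre. The Lamin A profile was higher in 71 of 120 centre bins, with a mean difference of 0.07 ± 0.44, where 44.2% of genome bins were higher in it. In the left outer part it was higher in 13 of 50 bins, with a mean difference of -0.44 ± 0.67, and in the right outer part in 4 of 50, with -0.63 ± 0.51. The flanks had differences of -0.46 ± 0.47 and -0.37 ± 0.51, and the genome -0.09 ± 0.63. Except in the right outer part, each of these means lay within 1 SD over bins of 0. Both profiles share the same reference, so that they are not independent measurements of the region.

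The read numbers behind the ratios differed between the centre and the outer parts, and most of all in the reference. They were summed by part and by windows of 100 kb, which do not resolve the borders. Whole numbers of fusion and reference reads could be recovered from the deposited values as the smallest that give them, and are lower bounds. In the reference, the centre had 28.2 reads per kb, the left outer part 141 and the right outer part 174, against 59.7 over the genome. The outer parts therefore had 5.59 times the reference reads of the centre per kb and 2.64 times those of the genome. In the Lamin A fusion, the centre had 76.9 reads per kb and the outer parts 45.1 and 38.6, a ratio of 1.84 between the centre and both outer parts together. In the Lap2b fusion the centre had 84.2 and the outer parts 65.0 and 69.7, a ratio of 1.25. Its 100 kb windows overlapped between the parts, with 71.1 at 22400000-22500000 in the centre and 104 at 23600000-23700000 in the right outer part. The centre was thus the higher in both fusions and the lower in the reference. The reference is the divisor of both profiles, and its part in the sharpness of the borders was not tested.

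**Figure D5:**
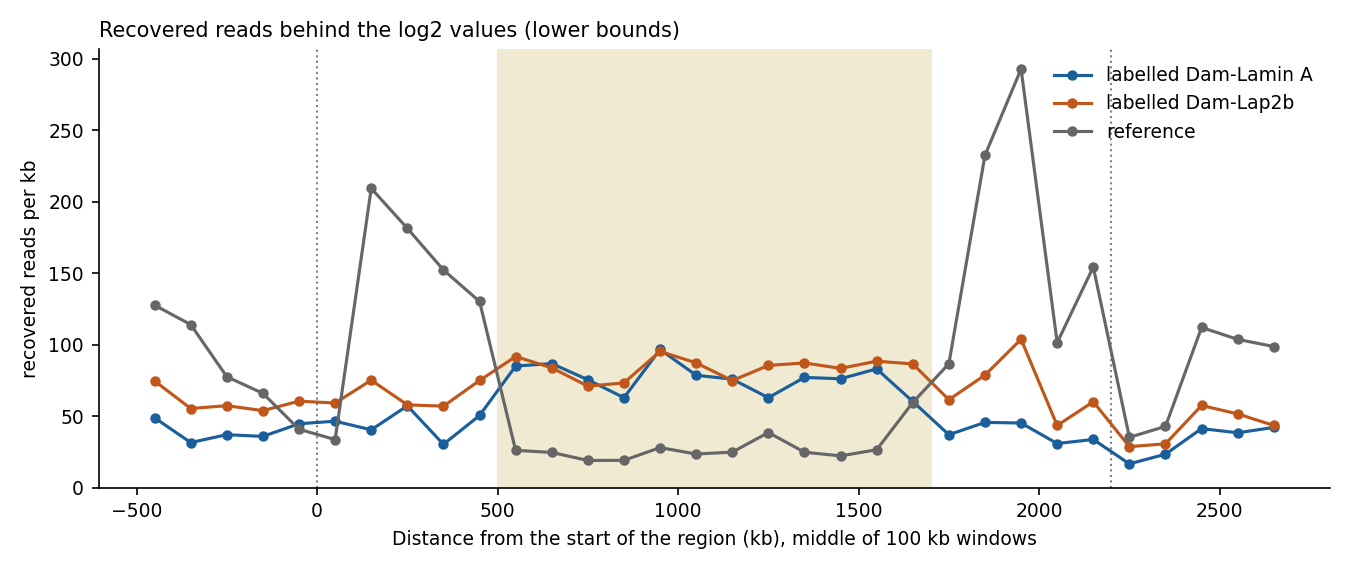
Recovered reads per kb (lower bounds) of the fusions and of the reference in windows of 100 kb, against the distance from the start of the region in kb. The reference reaches 293 reads per kb right of the shaded centre and 209 left of it and is low inside, where the Lamin A fusion is at its highest.

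The right outer part held the window with the most reference reads of the region. At 23600000-23700000 there were 293 reads per kb, a level reached by 0.222% of the 25670 genome windows of 100 kb. The window before it had 233 (0.849%), and 21800000-21900000 in the left outer part had 209 (1.43%). The Lap2b fusion also had its highest window of the region at 23600000-23700000, with 104 reads per kb, while the Lamin A fusion had 45.3 there. The mean log2 values of this window were among the lowest of the region, at -2.29 and -1.47.

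Every 10 kb bin of the region held at least the minimum of 5 fragments. The median fragment had 15, 13 and 4 reads in the centre (Dam-Lamin A, Dam-Lap2b, reference), 7, 10 and 15 in the left outer part and 6, 10 and 22 in the right. Fragments with 0 recovered reads in all 3 were 0.996% of the centre, 2.40% and 2.41% of the outer parts and 2.75% of the genome. Histone genes and Vmn1r genes have near-identical copies, and how reads that match several places were treated is not given in the sources used here. Median fragment length was 229 bp in the centre and 273 and 279 bp in the outer parts, with 258 bp over the genome.

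The flanks differed from the outer parts by less than the centre did. The left flank averaged -0.64 ± 1.13 and -0.18 ± 0.90, with 13 and 20 of 50 bins above 0, and held the end of a LAD at its far side (to 21246315 and 21243947). The right flank averaged -1.09 ± 0.66 and -0.73 ± 0.55, with 3 and 7 of 50 bins above 0. The left outer part was lower than its flank by 0.35 and 0.37 on the log2 scale and the right by 0.50 and 0.25, all within 1 SD over bins. The reference had 85.3 and 78.6 reads per kb in the left and right flank.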

How the data were processed

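Wild-type C57BL/6 mouse embryonic fibroblasts were profiled by DamID with Dam-Lamin A, Dam-Lap2b and Dam alone, 1 sample each, and each sample's group was taken from its label. The deposited profiles give log2 values per GATC fragment, and the deposited lists give LAD starts and ends (base positions) with no score. Bowtie and mm9 are named in the submitters' processing notes. Counting, the treatment of reads with several matches, the normalization, the reference and the domain caller are not given in the sources used here.

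Here column 4 was averaged per 10 kb bin over the fragments whose middle lies in it (at least 5 fragments), and parts, steps (5 bins a side) and list overlap were computed from the bins. With 1 sample a group no test was possible. Whole read numbers were recovered from the form constant + log2((fusion reads + 1)/(reference reads + 1)) for 99.9699% of fragments. The smallest pair of numbers was taken, so they are lower bounds, with totals of 144354387, 154754398 and 154016566 for Dam-Lamin A, Dam-Lap2b and the reference. Scripts (Python 3.11.15, numpy 2.4.6, pandas 2.3.3, numba 0.67.0, matplotlib 3.10.9) were tested on simulated data. The simulation used an expected reference depth of at least 5 reads a fragment and 1 clean step at each border of the centre. The lower reference depth of many fragments of the centre and the staged fall on the right were not simulated. The members, parts and gene lists were chosen with earlier results of these data known. Genes named are those of the RefSeq order in the region, its ends and its borders, and they carry no value. The alternatives tried were other bin sizes, weights, fragment filters, step widths, part borders, summed reads and domain calls.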

Additional observations from a re-analysis of the deposited data

How the results depend on the processing

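The means of the outer parts, centre minus outer parts, and the largest rise and right-hand fall were recomputed with bins of 5 and 20 kb, length weights, bin medians, fragments of 200 to 1000 bp, without fragments at 0 reads and with summed reads. Moved borders were tried for centre minus outer parts alone, other step widths for the steps alone, and other domain calls for the share of the region in each list alone. Genome ranks, read ratios, differences between profiles and domain edges were not recomputed. Of 88 values, 85 stayed within their tolerance (the spread over bins, or 5 percentage points for the shares in lists), 3 moved and 0 reversed. This tolerance is wide. For the left outer part it was 1.38 and 1.08, more than the size of the means (-0.99 and -0.55). The means themselves ranged from -1.18 to -0.97 and from -0.59 to -0.37. Merging LADs across gaps under 25 kb could not change the shares, since the gap between the LADs was 365.7 or 375.7 kb. The 3 were the right-hand fall of the Lap2b profile with summed reads (-2.15), the rise of the Lamin A profile with 20 kb a side (2.30) and the rise of the Lap2b profile with bins of 20 kb (2.17). Centre minus outer parts ranged from 2.57 to 3.08 in the Lamin A profile and from 1.99 to 2.52 in the other. The rise stayed between 22140000 and 22160000 in both profiles. The largest fall on the right lay at 23360000 in the Lap2b profile, except with 100 kb a side (23510000). In the Lamin A profile it lay either from 23355000 to 23370000 or at 23480000, so its position there depends on the setting. The causes were not tested. Depth limits single fragments (median 4 reference reads in the centre). No paired analysis was possible because each group has 1 sample.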
